A study of Mus musculus with 6 samples.

Results

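Semaphorins, their plexin and neuropilin receptors and the plexin domain containing proteins were examined in the inner ear of mice lacking Pou3f4. Members were the protein-coding genes of the deposited table named as class 3 to 7 semaphorins (Sema) or plexins (Plxn), with Nrp1, Nrp2, Plxdc1 and Plxdc2, which gave 33 of 55401 genes. They comprised 20 semaphorins, 9 plexins, 2 neuropilins and 2 Plxdc genes, and all 33 passed the filter on low counts that left 19687 genes. RNA of the whole inner ear was sequenced in 3 wild-type libraries (WT) and in 3 libraries of the genotype written Pou3f4y/- (KO). Pou3f4 lies on the X chromosome and encodes a POU-family regulator of transcription in otic mesenchyme, and the series set out to find why the mutant ear becomes pigmented. The labels give no strain, age, sex or dissection and do not say whether libraries came from separate animals, so p-values measure only the spread between these libraries. One label field names interstitial cells and another names cells of every kind.

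Semaphorins are guidance signals for growing axons, migrating neural crest cells and vessels. Most class 3 semaphorins are secreted and bind a neuropilin, which holds the ligand while a plexin A or plexin D1 signals inside the cell, whereas classes 4 to 7 are mostly bound to the membrane and bind plexins directly. In the ear they are known for guiding spiral ganglion fibres, and in bone Sema3a and Sema4d act between osteoblasts and osteoclasts.

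Library totals ranged from 18409409 to 23323953 counts. Pou3f4 held 1044 to 2233 counts in WT and 28 to 45 in KO, which matched the labels. Reads of Y-linked genes were present in WT replicate 3 and KO replicate 1 and were 0 in the other 4 libraries, although the genotype is written as that of a male. All 10 hair cell markers were detected in every library, with a summed level of 36.3 to 101 CPM (counts scaled to a common library total) in WT and 66.1 to 78.0 CPM in KO, so the labelled tissue was present. The 6 otic fibrocyte markers summed to 1420 to 2886 CPM in WT and 1034 to 1070 CPM in KO. Markers of bone, cartilage, nerve and muscle were present too. Sums of the osteoblast, osteoclast, cartilage and Schwann cell lists did not overlap between the genotypes, while those of the neuron and skeletal muscle lists did. Fitted differences (KO over WT) were nevertheless below 0 for all 14 neuron and all 9 skeletal muscle markers. They were also below 0 for all 10 Schwann cell markers tested and 8 of 9 cartilage markers, and above 0 for all 8 osteoclast markers. The 11 osteoblast and osteocyte markers summed to 40266 to 49555 CPM in WT and 80763 to 90338 CPM in KO, with 9 fitted differences above 0 and 2 below. The 8 osteoclast markers summed to 4397 to 6950 CPM and 9953 to 10602 CPM. The 9 cartilage markers summed to 8934 to 9912 CPM in WT and 5387 to 6203 CPM in KO. The 11 Schwann cell markers summed to 4649 to 8857 CPM in WT and 3471 to 3924 CPM in KO, and the 14 neuron markers to 1342 to 2744 CPM and 1022 to 1400 CPM. Skeletal muscle markers (9 genes) varied most, at 4945, 108 and 8594 CPM in WT replicates 1 to 3 and 21.0, 662 and 29.9 CPM in KO replicates 1 to 3. No marker of these lists was at 0 in any library. The part of these differences in the results below was not tested, and fewer cells of a type cannot be told apart from less RNA per cell.

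None of the 33 genes passed the test between the genotypes. With the edgeR quasi-likelihood test the adjusted p over all genes ranged from 0.0615 to 0.99, where 0.396% of all genes tested passed at 0.05 (0.213% higher in KO and 0.183% lower). DESeq2, which called 7.84% of all genes (3.02% higher, 4.82% lower), called 6 of the 33 (18.2%): Nrp2, Plxnd1 and Sema3d higher in KO, and Plxdc1, Sema6c and Sema4g lower. At an unadjusted p under 0.05 edgeR listed 13 of the 33 (39.4%), against 19.6% of all genes. Of these 13, 4 were higher in KO (8.71% of all genes were) and 9 lower (10.9% of all genes were). Limma-voom called 0 of the 33, where it called 0.406% of all genes (0.244% higher, 0.163% lower). At an unadjusted p under 0.05 it listed 10 of the 33 (30.3%), against 18.1% of all genes. The 3 KO libraries lay entirely above or below the 3 WT libraries for 15 of the 33 (45.5%), against 27.7% of all genes. Of these, 7 were higher in KO, where 15% of all genes were, and 8 were lower, where 12.7% of all genes were. Fitted differences of ligands lay mostly below 0 (16 of 20 semaphorins, median log2 fold change −0.25) and those of plexins mostly above 0 (7 of 9, median 0.17). Over all genes tested, 10050 differences were below 0 and 9637 above, with a median of −0.01. These shares describe the members and were not tested as a list.

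**Figure D1:**
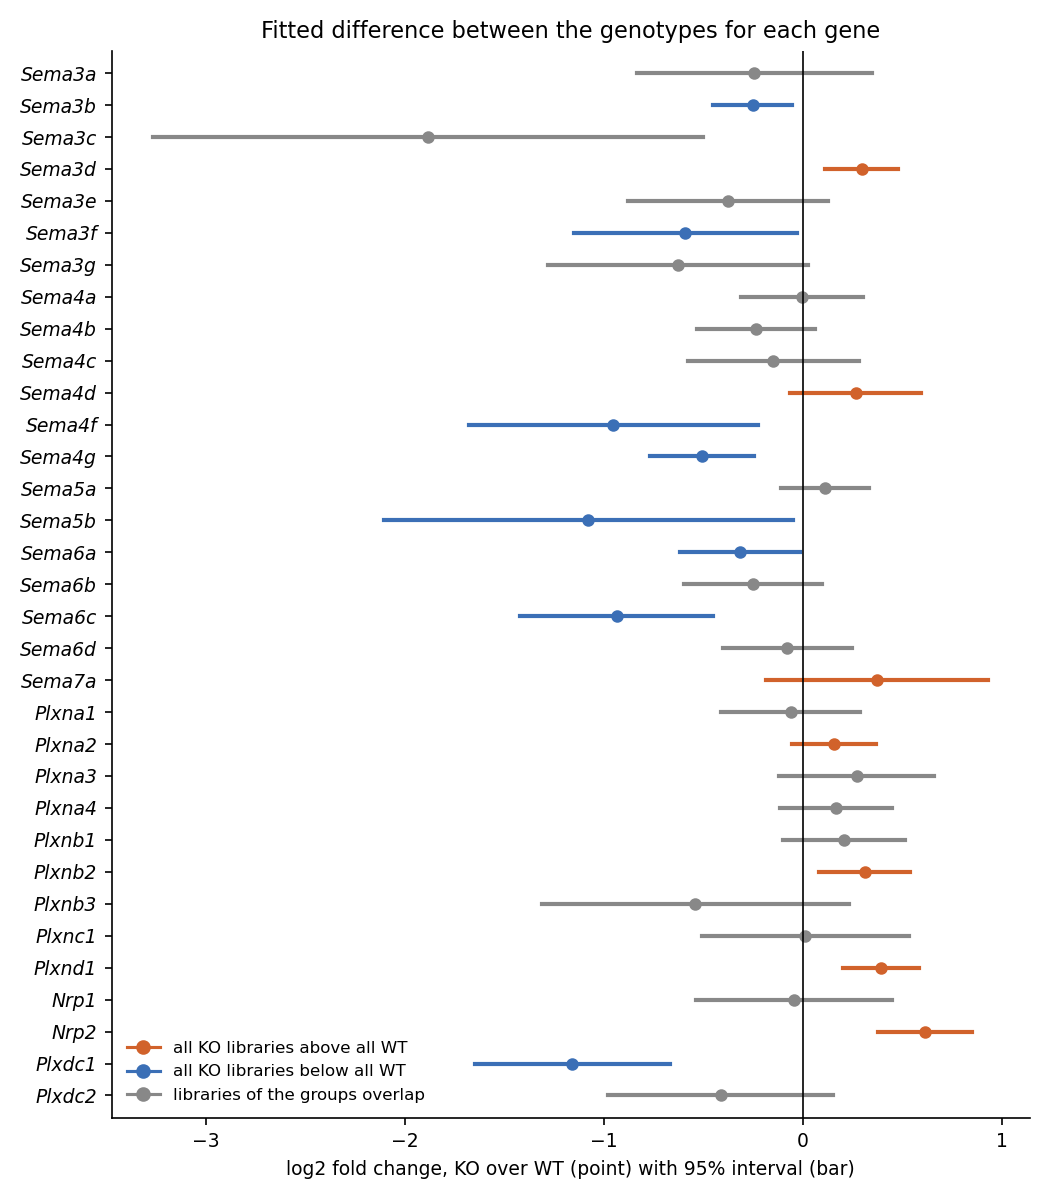
Fitted log2 fold change of KO over WT (horizontal axis, points) with its 95% interval (bars) for each of the 33 genes, coloured by whether the 3 KO libraries lie wholly above or below the 3 WT libraries. Most semaphorins lie left of 0 and most plexins right of it, Nrp2 has the highest value (0.61) and Sema3c the lowest (−1.88) with the widest interval.

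Levels were compared between genes per kilobase of exon. In WT the highest was Sema7a, a membrane-anchored semaphorin that binds plexin C1 and integrins, at 39.1 ± 12.8 CPM per kilobase (SD, n = 3), or 13.3% of the summed level of the 33 genes. Nrp2 followed at 32.1 ± 0.589, Plxnd1 at 26.1 ± 0.0935, Plxnb2 at 25.3 ± 1.50 and Sema3d at 17.3 ± 0.872 CPM per kilobase. The WT libraries of Sema7a spanned 25.1 to 50.2 CPM per kilobase and covered the level of Nrp2, and those of Plxnd1 and Plxnb2 overlapped, so neither pair was ordered beyond its spread. The same 5 genes held the same ranks in KO, with Sema7a at 50.7 ± 0.585 and Nrp2 at 49.2 ± 5.02 CPM per kilobase, again with overlapping libraries. The lowest 3 in both genotypes were Sema4f, Plxdc1 and Sema5b, the last at 0.709 ± 0.168 CPM per kilobase in WT and 0.333 ± 0.170 in KO. Sema3c, a secreted ligand known from heart and vessel development, had rank 14 in WT and rank 26 in KO.

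**Figure D2:**
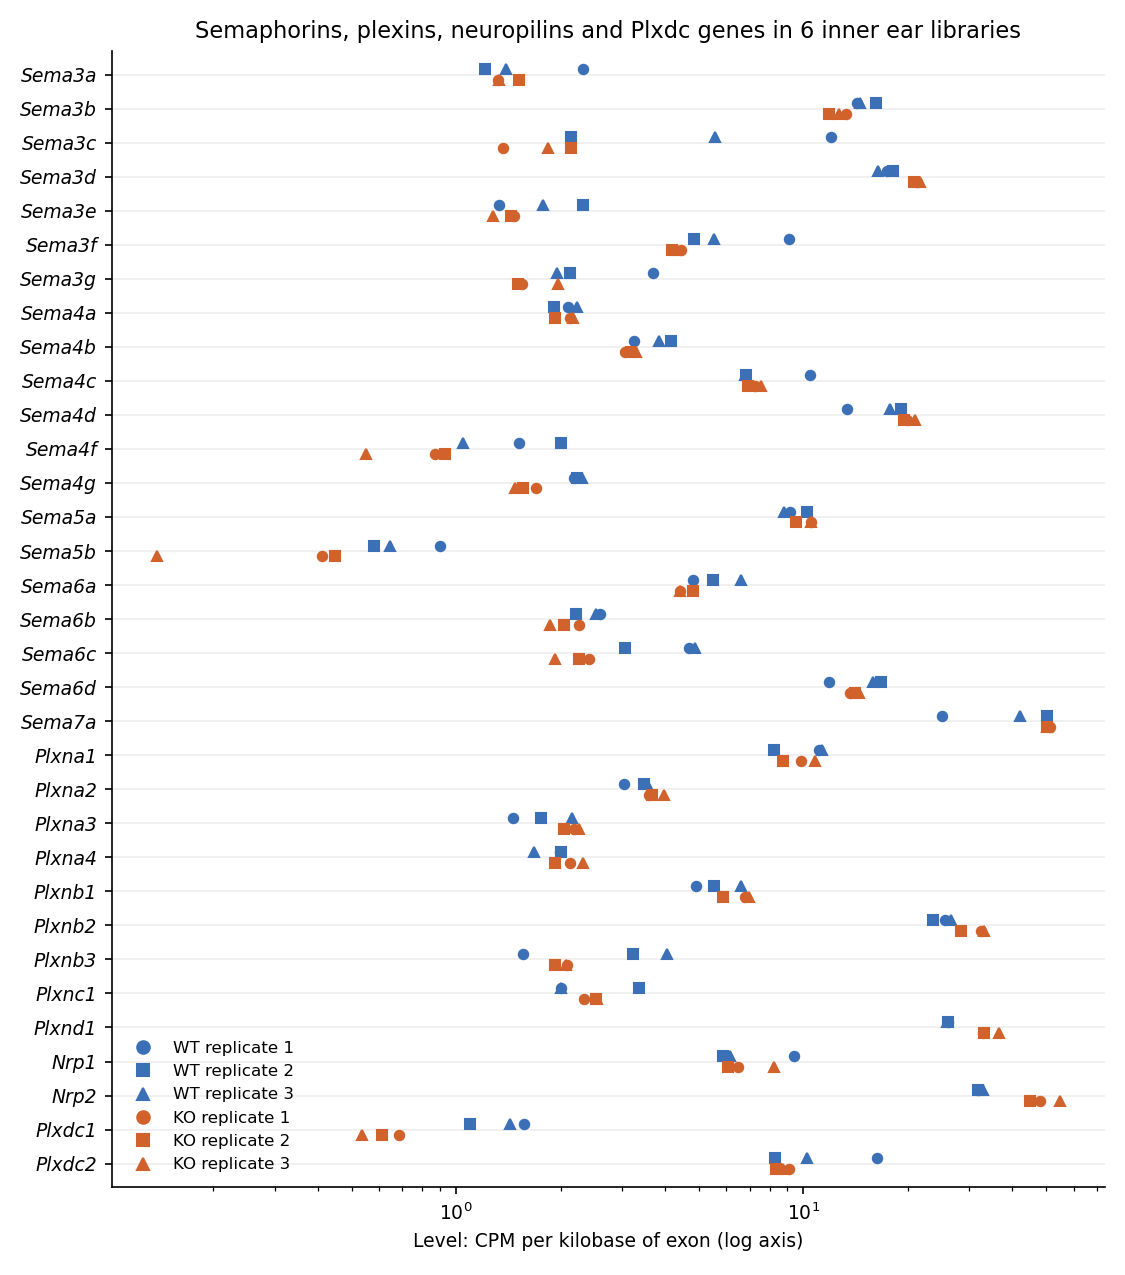
Level of each gene in each library, in CPM per kilobase of exon on a log axis, with WT in blue, KO in orange and the replicate number as the marker shape. Sema7a, Nrp2, Plxnd1 and Plxnb2 lie at the top of the range and Sema5b at the bottom, and the WT points of Sema3c are the most spread.

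Among the secreted class 3 ligands, 1 of 7 had a fitted difference above 0. Sema3d, a ligand of neural crest and endothelial migration (chromosome 5, 12383385 to 12588948, plus strand), stood at 150, 156 and 141 CPM in WT replicates 1 to 3 and at 183, 179 and 187 CPM in KO replicates 1 to 3. All 3 KO libraries were above all WT libraries. The log2 fold change was 0.30 (SE 0.08, adjusted p = 0.136 with edgeR and 0.0222 with DESeq2), a 1.23-fold difference.

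Sema3c (chromosome 5, 17574281 to 17730268, plus strand) had the largest fitted difference of the family, and its WT libraries disagreed. It held 1539, 293 and 780 counts in WT replicates 1 to 3, or 86.0, 15.3 and 39.7 CPM, and 224, 352 and 243 counts in KO, or 9.75, 15.3 and 13.1 CPM. WT replicate 2 lay at the level of KO replicate 2, so the groups overlapped, while WT replicate 1 was 5.63 times as high as WT replicate 2. The log2 fold change was −1.88 (SE 0.58, adjusted p = 0.168, edgeR), with a 95% interval of −3.26 to −0.50. Without WT replicate 1 it was −1.12 (adjusted p = 0.122) and without WT replicate 2 it was −2.30 (adjusted p = 0.0348).

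The other class 3 genes stood lower in KO or did not separate. Sema3f, a repellent ligand that prefers neuropilin 2, stood at 47.3, 25.2 and 28.8 CPM in WT against 23.0, 21.7 and 22.5 in KO. All KO libraries were below all WT libraries, with WT replicate 1 far above the other two (−0.59, SE 0.23, adjusted p = 0.236, edgeR). Without WT replicate 1 the difference was −0.28 (adjusted p = 0.115). Sema3b, a neuropilin ligand, also separated, at 71.7 ± 4.91 CPM in WT against 60.2 ± 3.47 in KO (−0.25, adjusted p = 0.184). Sema3a, the founding repellent of the class and a ligand of neuropilin 1, stood at 32.2, 16.8 and 19.3 CPM in WT against 18.3, 21.1 and 18.4 in KO, with overlapping groups. Its fitted difference of −0.24 was 0.078 without WT replicate 1. Sema3e, which binds plexin D1 without a neuropilin, stood at 16.8 ± 4.62 and 13.0 ± 0.940 CPM, and Sema3g, a ligand made in vessels, at 11.7 ± 4.32 and 7.61 ± 1.15 CPM, both overlapping.

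In class 4, the membrane-bound ligands of B plexins and other receptors, 1 of 6 fitted differences was above 0. Sema4g (chromosome 19, 44989101 to 45003397, plus strand) stood at 18.9, 19.3 and 20.0 CPM in WT against 14.7, 13.5 and 12.8 in KO. The groups were apart and the spread was small, with an SD of 0.552 CPM in WT against 0.960 in KO. The log2 fold change was −0.51 (SE 0.11, adjusted p = 0.103 with edgeR, 0.00967 with DESeq2 and 0.0353 with edgeR without WT replicate 1). Sema4f, a membrane semaphorin of neurons and Schwann cells, was also apart, at 8.05, 10.6 and 5.54 CPM in WT against 4.61, 4.92 and 2.92 in KO (−0.95, SE 0.30, adjusted p = 0.175, edgeR). Sema4d, the osteoclast ligand that acts on plexin B1 of osteoblasts, stood at 102, 147 and 136 CPM in WT against 153, 150 and 161 in KO. Its KO libraries were all higher, the lowest only just above WT replicate 2 (0.27, SE 0.14, adjusted p = 0.338), and without WT replicate 1 the difference was 0.11 (adjusted p = 0.301). Sema4a, Sema4b and Sema4c overlapped between the groups, with fitted differences of −0.0037, −0.23 and −0.15. Over 7.27% of their length, Sema4c exons overlap those of D430040D24Rik, a gene of the other strand, so its level is uncertain.

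The class 5 and class 6 transmembrane semaphorins were lower in KO or overlapped. Sema6c, a transmembrane semaphorin of nerve and muscle (chromosome 3, 95160457 to 95174024, plus strand), stood at 27.9, 18.1 and 29.0 CPM in WT against 14.4, 13.4 and 11.5 in KO. All KO libraries were below all WT libraries, among which replicate 2 was the lowest. The log2 fold change was −0.93 (SE 0.20, adjusted p = 0.104 with edgeR and 0.002 with DESeq2), a 1.91-fold lower level, and the adjusted p was 0.0269 without WT replicate 2 (edgeR). WT replicate 2 also had the lowest sum of skeletal muscle markers in WT (108 CPM, against 4945 and 8594 in WT replicates 1 and 3). In KO these sums were 21.0 to 662 CPM. The part of muscle in the difference of Sema6c was not tested. Sema6a, a plexin A ligand of neural circuits, stood at 49.5 ± 7.92 CPM in WT against 39.8 ± 2.02 in KO (−0.31, adjusted p = 0.241, edgeR). Without WT replicate 1 the difference was −0.43 (adjusted p = 0.0471) and without WT replicate 3 it was −0.18 (adjusted p = 0.397). Sema6d, the class 6 gene of highest level and also a plexin A ligand, overlapped, at 125, 176 and 167 CPM in WT replicates and 144, 148 and 153 in KO, where WT replicate 1 was lowest and the other two WT libraries highest. Sema6b, another plexin A ligand, overlapped too (−0.25). Sema5b was the lowest member, with 114, 79 and 90 counts in WT and 67, 73 and 18 in KO, where KO replicate 3 was far below the other two (−1.08, SE 0.43, adjusted p = 0.238, and −0.71 without KO replicate 3). Sema5a, a guidance cue that can bind matrix proteoglycans, held 171, 192 and 165 CPM in WT replicates and 196, 177 and 196 in KO, and the groups overlapped, with a 95% interval of −0.11 to 0.33 for the log2 fold change.

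Sema7a stood at 82.7, 165 and 139 CPM in WT against 169, 166 and 166 in KO. Only WT replicate 1 was far from the rest, and the KO libraries lay just above WT replicate 2 (0.37, SE 0.23, adjusted p = 0.417, edgeR). Without WT replicate 1 the log2 fold change was 0.12 (adjusted p = 0.382), and without WT replicate 2 it was 0.59 (adjusted p = 0.179). Its receptor Plxnc1 overlapped, at 20.5 ± 6.51 CPM in WT against 20.7 ± 1.01 in KO, with a 95% interval of −0.51 to 0.53.

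Of the receptors, Nrp2 had the smallest adjusted p of the family. Neuropilin 2 is a co-receptor of class 3 semaphorins and of VEGF-C and is found on neural crest, sensory neurons and lymphatic vessels (chromosome 1, 62703285 to 62818695, plus strand). It held 6736, 7230 and 7644 counts in WT, or 376, 377 and 389 CPM, and 13079, 12186 and 11975 counts in KO, or 569, 531 and 648 CPM. The lowest KO library was well above the highest WT library. The level was 1.53-fold higher in KO (log2 fold change 0.61, SE 0.10, 95% interval 0.38 to 0.85), with an adjusted p of 0.0615 with edgeR and 4.91e-06 with DESeq2. With edgeR it passed only when WT replicate 1 was left out (adjusted p = 0.0211), and leaving out any other library gave 0.0508 to 0.359. Nrp1, the co-receptor of Sema3a and of VEGF-A, stood at 91.7, 57.6 and 60.4 CPM in WT against 63.5, 59.5 and 80.6 in KO, and its groups overlapped (−0.04, 95% interval −0.54 to 0.45). The level of Nrp2 per kilobase was 3.39, 5.41 and 5.32 times that of Nrp1 in WT replicates 1 to 3 and 7.41, 7.37 and 6.64 times in KO, and these ratios, which do not depend on library scaling, did not overlap. Ratios were formed for other pairs too. That of Plxnd1 to Sema3e did not overlap between the groups either. Those of Sema7a to Plxnc1, Plxnb2 to Sema4d and Sema3d to Sema3a overlapped. The ratio of Nrp2 to Nrp1 was chosen after the values were seen, and none of these ratios has a test.

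Plexin D1, the receptor of Sema3e on endothelium that also works with neuropilins (chromosome 6, 115954811 to 115995005, minus strand), showed the least spread in WT. Plxnd1 stood at 191, 191 and 190 CPM in WT against 241, 242 and 267 in KO, with the groups apart. The log2 fold change was 0.39 (SE 0.08, adjusted p = 0.0926 with edgeR, 0.000676 with DESeq2 and 0.0296 with edgeR without WT replicate 1), a 1.31-fold difference. The 8 endothelial markers summed to 438 to 621 CPM in WT and 486 to 527 CPM in KO, with overlapping groups. The 9 macrophage markers summed to 495 to 591 CPM and 760 to 824 CPM. The part of these or other cell types in the difference of Plxnd1 was not tested. Plexin B2, a receptor of class 4 semaphorins, was apart as well, at 198, 183 and 205 CPM in WT against 250, 220 and 256 in KO for Plxnb2 (0.31, SE 0.10, adjusted p = 0.168, edgeR).

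**Figure D3:**
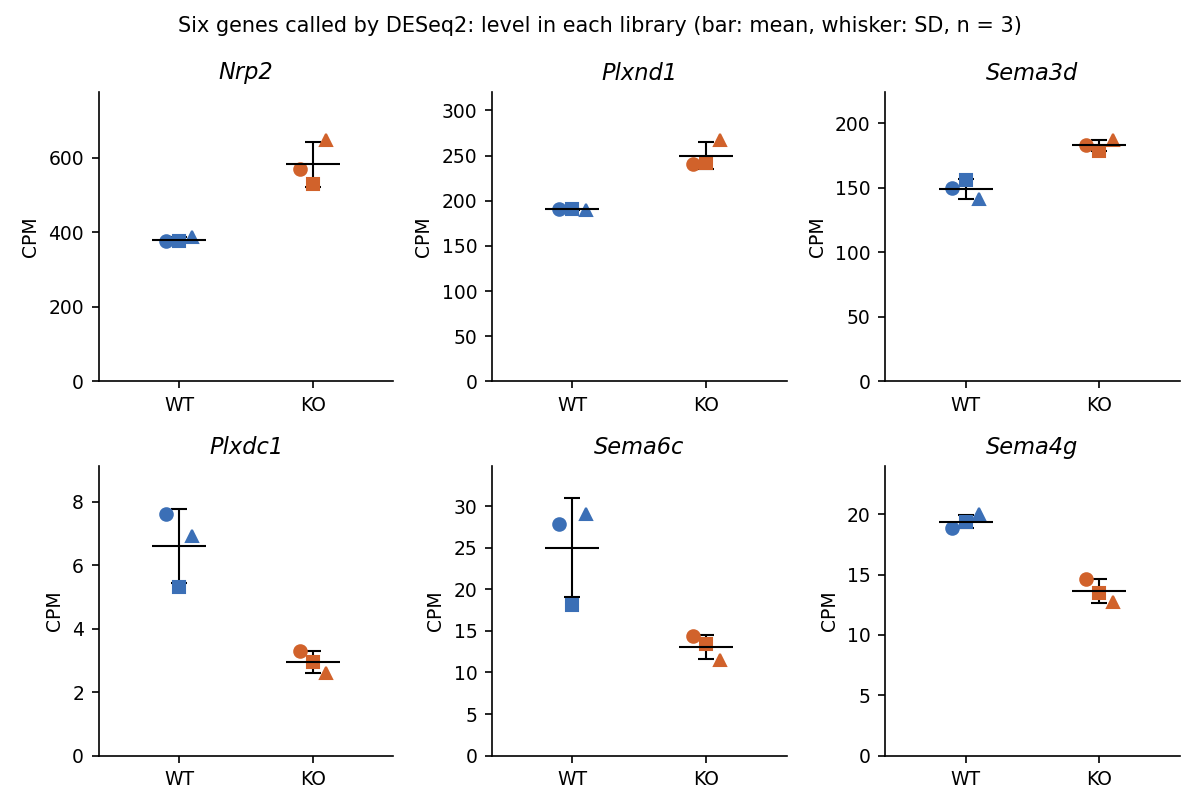
CPM in each library (vertical axes from 0) for the 6 genes called by DESeq2 and not by edgeR, with replicates 1, 2 and 3 as circle, square and triangle, the mean as a bar and the SD (n = 3) as a whisker. Nrp2, Plxnd1 and Sema3d are higher in all 3 KO libraries, and Plxdc1, Sema6c and Sema4g are lower in all 3.

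Promoter sequences from RefSeq (GRCm38.p6, windows of 250 bases before to 50 after each start) were found for 26 of the 33 genes. They were searched on both strands for ATGCAAAT, the octamer bound by POU-domain factors, and for ATGNAAAT, which contains it. The octamer was in 0 of 37 windows of members and in 1.74% of 32851 windows. The looser form was in 1 member window, that of Sema4f, and in 5.67% of all windows. Bases before the start are printed for Nrp2 and Plxnd1, the receptors with the smallest adjusted p, and for Sema4f, the member with the match. Capitals mark the match to the looser form, read on the opposite strand, and the other 2 sequences have none. The RefSeq start of Nrp2 lies inside the gene as the deposited table places it, and its sequence stops at the gene's first base there. They are Nrp2 at chr1:62703067-62703284 (plus strand, 218 bases), Plxnd1 at chr6:115995006-115995255 (minus strand) and Sema4f at chr6:82939770-82940019 (minus strand), the last pair 250 bases long, each written 5′ to 3′.
Nrp2: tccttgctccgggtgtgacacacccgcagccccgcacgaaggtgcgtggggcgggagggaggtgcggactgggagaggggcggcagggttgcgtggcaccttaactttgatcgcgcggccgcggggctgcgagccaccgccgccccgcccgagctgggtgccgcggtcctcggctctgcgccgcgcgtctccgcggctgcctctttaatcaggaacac
Plxnd1: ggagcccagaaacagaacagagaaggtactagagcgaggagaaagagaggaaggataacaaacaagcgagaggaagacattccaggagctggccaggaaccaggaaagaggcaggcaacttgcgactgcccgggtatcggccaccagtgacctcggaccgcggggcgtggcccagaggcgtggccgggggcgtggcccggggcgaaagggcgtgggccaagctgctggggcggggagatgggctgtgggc
Sema4f: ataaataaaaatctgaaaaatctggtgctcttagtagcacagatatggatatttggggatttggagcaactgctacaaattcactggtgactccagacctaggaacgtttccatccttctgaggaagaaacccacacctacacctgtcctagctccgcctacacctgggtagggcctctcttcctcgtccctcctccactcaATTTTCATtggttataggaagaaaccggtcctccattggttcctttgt
The Nrp2 and Plxnd1 sequences are 72.5% and 64.8% G or C and that of Sema4f is 46%. Over the 250 bases before the start, the median was 64% in member windows and 52.4% in all windows. A match or its absence in these windows is a description of their letters and says nothing of binding.

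The A plexins, which signal for class 3 ligands bound to neuropilins and for class 6 ligands, differed little. Plxna2 was slightly higher in every KO library, at 52.2, 59.6 and 60.9 CPM in WT against 61.6, 63.0 and 68.2 in KO (0.16, SE 0.09, adjusted p = 0.369, edgeR), and without WT replicate 1 the difference was 0.080 (adjusted p = 0.472). Plxna1, Plxna3 and Plxna4 overlapped, with fitted differences of −0.06, 0.27 and 0.17. No A plexin had an interval reaching beyond 0.66 on the log2 scale in size. Over 10.7% of their length, Plxna1 exons overlap those of Gm26811, a gene of the other strand, so its level is uncertain too.

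Plxnb3 and Plxna3 are the X-linked members. Plxnb3, a B plexin of glia that binds Sema5a, stood at 10.1, 21.0 and 26.3 CPM in WT against 13.6, 12.5 and 13.4 in KO. WT replicate 1 was below every KO library and the other two WT libraries were above, so the groups overlapped (−0.54, SE 0.32, adjusted p = 0.397), and without WT replicate 1 the difference was −0.86 (adjusted p = 0.0188, edgeR). Without WT replicate 3 it was −0.24 (adjusted p = 0.711). Plxna3 stood at 11.5, 13.8 and 17.0 CPM in WT against 17.2, 16.1 and 17.8 in KO. Plxnb1, the main receptor of Sema4d, overlapped at 54.4 ± 8.24 and 62.9 ± 5.62 CPM.

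The Plxdc genes encode membrane proteins with a plexin-like domain that are known from tumour endothelium and as receptors of pigment epithelium derived factor. Plxdc1 (chromosome 11, 97923238 to 97986444, minus strand) held 136, 102 and 136 counts in WT, or 7.60, 5.32 and 6.92 CPM, and 76, 68 and 48 counts in KO, or 3.31, 2.96 and 2.60 CPM. The groups were apart, and the level was 2.23-fold lower in KO. The log2 fold change was −1.16 (SE 0.20, 95% interval −1.65 to −0.67), with an adjusted p of 0.0711 with edgeR and 0.00068 with DESeq2. It was the only member called by edgeR both without WT replicate 1 (adjusted p = 0.0287) and without WT replicate 2 (0.0326). Plxdc2 stood at 114, 57.5 and 71.3 CPM in WT against 63.2, 58.1 and 60.8 in KO, where only WT replicate 1 was far from the rest (−0.41, and −0.099 without that library).

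Summed per class, receptors lay higher in KO and the ligands as a whole overlapped. The 2 neuropilins summed to 39.3 ± 1.74 CPM per kilobase in WT and 56.1 ± 6.16 in KO, and the 9 plexins to 79.7 ± 3.70 and 94.5 ± 6.16, without overlap between libraries. Nrp2, Plxnd1 and Plxnb2 make up most of these sums. The 20 semaphorins summed to 162 ± 9.77 CPM per kilobase in WT and 163 ± 2.16 in KO, with overlapping libraries. Within them the 4 class 6 genes summed to 27.1 ± 2.95 and 22.8 ± 0.277 CPM per kilobase, apart, and the 7 class 3 genes to 51.4 ± 7.54 and 44.4 ± 0.903, also apart. These sums are descriptions of the chosen members and have no test.

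**Figure D4:**
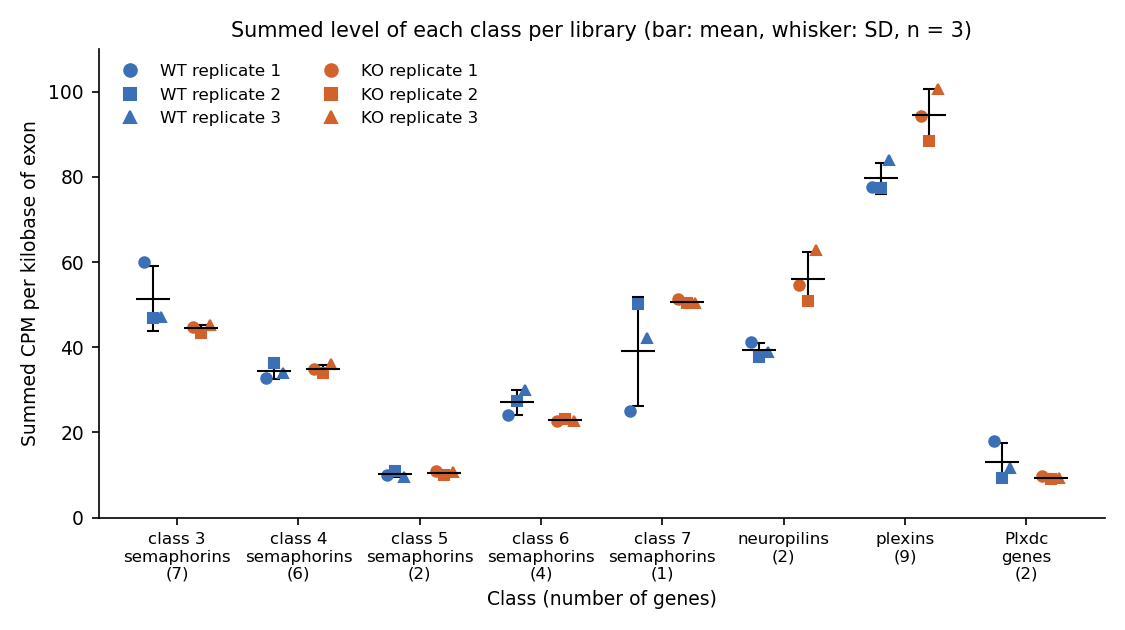
Summed CPM per kilobase of exon (vertical axis) of each class in each library, with the mean as a bar and the SD (n = 3) as a whisker. Neuropilins and plexins lie higher in all KO libraries, and the sum of class 7 is Sema7a alone, low in WT replicate 1.

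Libraries within WT differed more than those within KO. The median coefficient of variation of the 33 genes was 17.7% in WT and 6.34% in KO, and 27 of 33 genes (81.8%) varied more in WT, as did 80.8% of all genes tested. WT replicate 1 was the highest of the 6 libraries for 10 members, among them Sema3c, Sema3f, Sema3g, Sema3a, Nrp1 and Plxdc2, and the lowest for 9, among them Sema7a, Sema4d, Plxnb3 and Plxna3. That share (57.6%) was near that over all genes (58.4%). Some marker sums also set WT replicate 1 apart from WT replicates 2 and 3. The Schwann cell sum was 4649 CPM against 8857 and 7944, and the otic fibrocyte sum 1420 against 2886 and 2729. The endothelial sum was higher, at 621 CPM against 467 and 438. The part of these differences in the values of members was not tested. Without WT replicate 1 edgeR called 6 members (18.2%), Nrp2 and Plxnd1 higher and Plxdc1, Plxnb3, Sema4g and Sema6a lower, against 9.06% of all genes (3.6% higher, 5.46% lower). Without WT replicate 2 it called 3 (9.09%), Plxdc1, Sema3c and Sema6c, all lower, against 3.78% of all genes (1.41% higher, 2.37% lower).

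**Figure D5:**
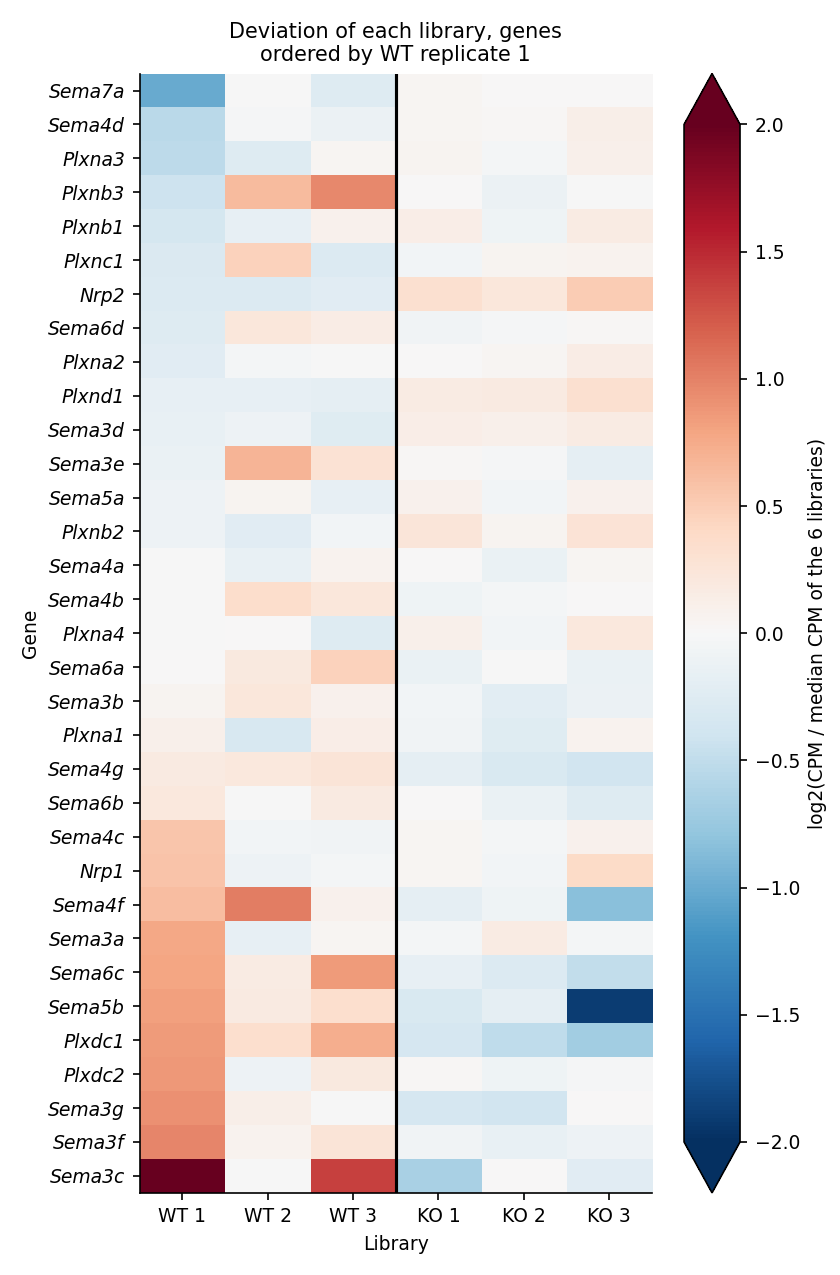
Level of each gene in each library as log2 of CPM over the median of the 6 libraries, coloured from blue (low) to red (high) and cut at 2 in size, with genes ordered by WT replicate 1. Within WT replicate 1, Sema7a is lowest and Sema3c highest, and the lowest cell of all libraries is Sema5b in KO replicate 3.

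Genes that act with these receptors were read from the same fit. Of 49 co-receptors, signalling proteins and VEGF-family ligands, 0 passed with edgeR (14 at an unadjusted p under 0.05, or 28.6%, against 19.6% of all genes), while DESeq2 called 5 (10.2%, against 7.84% of all genes). The co-receptors and binding partners (14 genes, 0 called) included L1cam, a cell adhesion partner of Nrp1 on axons, at 35.7 ± 3.96 CPM in WT against 19.7 ± 4.03 in KO (−0.86, SE 0.17, adjusted p = 0.0938 with edgeR, called lower by DESeq2). Cntn2, an axonal adhesion molecule, stood at 14.2 ± 3.90 and 7.86 ± 1.96 CPM and was also called lower by DESeq2. Mst1r, a receptor kinase that can pair with B plexins, stood at 22.6 ± 4.32 CPM in WT against 39.7 ± 2.59 in KO (0.81, SE 0.15, adjusted p = 0.0832) and was called higher by DESeq2. The 3 genes of highest CPM in that list were Itgb1, Ptk7 and Kdr, at 727 ± 112, 92.3 ± 33.5 and 87.5 ± 20.9 CPM in WT and 838 ± 34.9, 88.3 ± 7.15 and 82.4 ± 5.61 CPM in KO.

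Of 30 intracellular signalling genes, 0 were called by edgeR (8 at an unadjusted p under 0.05, where 19.6% of all genes were). DESeq2 called 1 of the 30 higher and 1 lower, where it called 3.02% of all genes higher and 4.82% lower. The higher gene was Rnd1, a GTPase that binds plexins (10.2 ± 3.74 CPM in WT and 19.1 ± 1.83 in KO). The lower was Dpysl5, a collapsin response mediator of neurons (20.7 ± 1.47 and 12.1 ± 3.57 CPM). The genes of highest CPM were Cfl1, Rhoa and Rac1, common regulators of actin, at 601 ± 62.4, 437 ± 32.3 and 397 ± 17.6 CPM in WT and 662 ± 4.35, 469 ± 2.44 and 401 ± 12.7 CPM in KO. Exons of Rac1 overlap Daglb over 51.4% and those of Cfl1 overlap Snx32 over 16.5%. Of 5 VEGF-family ligands, 0 were called (1 at an unadjusted p under 0.05, against the same share of all genes), and DESeq2 called 0. Vegfa, the ligand shared with Nrp1, stood at 71.5 ± 13.9 CPM in WT against 64.3 ± 4.61 in KO, Vegfb at 22.8 ± 3.74 and 18.0 ± 2.70 CPM, and Vegfc, the ligand shared with Nrp2, at 14.1 ± 1.36 and 12.6 ± 0.780 CPM.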

How the data were processed

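RNA of 6 mouse inner ear libraries was extracted with TRIzol and made into stranded poly(A) libraries, per the labels' protocols. The authors deposited raw read counts per gene, whole numbers that were not normalised. Trimmomatic, HISAT2, Cufflinks and HTSeq and the build mm10 are named in the submitters' processing notes. Versions, the annotation release and the use of strand in counting were not given in the sources used here.

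Genes were kept with filterByExpr (minimum count 10), scaled by TMM and tested with the quasi-likelihood test of edgeR 4.0.16 (R 4.3.3, KO over WT, all 6 libraries), with Benjamini-Hochberg adjustment over 19687 genes and a threshold of 0.05. The test was checked on simulated counts with equal spread in both groups and with changes larger than those of 30 of the 33 members. That check does not cover smaller changes or the unequal spread of these libraries. CPM uses the scaled totals, and levels per kilobase use the union of exons in GENCODE M21, in which all 33 members have the table's coordinates. SE and 95% intervals come from that fit. A count of 0 allows up to 3 reads, or 0.129 to 0.163 CPM, which covers counting error only.

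The rule gave values per library to members past the threshold of that fit and to the gene of highest level per kilobase in each class, and other members by range. Of the pathway lists it named genes past the threshold or, with none, the 3 of highest CPM. Other members with values per library, and Cntn2, L1cam, Mst1r, Rnd1, Dpysl5 and Vegfd, were chosen after their values were seen. Members, gene lists and motifs were chosen with earlier results of these data known. Alternatives were DESeq2 1.42.0, limma-voom (limma 3.58.1), other scalings and filters, a replicate block, Xist presence as a term, removal of mitochondrial, haemoglobin and muscle genes, and leaving out each library.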

Additional observations from a re-analysis of the deposited data

How the results depend on the processing

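With edgeR the number of members called was 0 under RLE and upper-quartile scaling and both other settings of the filter on low counts. Adding Xist presence as a term or removing mitochondrial, haemoglobin and muscle genes also gave 0. Limma-voom called 0 and DESeq2 called 6, and edgeR called between 0 and 6 when each library was left out. The pathway genes called numbered 5 with DESeq2 and 0 to 5 without 1 library. Over all genes the 78 calls became 1509 with DESeq2, 0 with Xist presence as a term and 0 to 1814 without 1 library (0 without WT replicate 3 or any KO library, 760 without WT replicate 2). With the replicate number as a block (a paired fit), 0 members, 0 pathway genes and 1 gene of all were called. The labels do not say whether libraries of the same number were paired. Deviations of same-numbered libraries from their group mean correlated at −0.13, −0.29 and −0.19, and no library correlated best with its own number. With 3 libraries per group, centred within each group, these values cannot show or exclude a pairing. Of 495 values of single members under 15 alternatives, 464 kept direction and side of the threshold, 15 passed it and 16, of 7 genes, changed sign, all with an adjusted p of 0.386 or more. Sema4a was 0.013 with upper-quartile scaling and 0.021 without a filter. Without 1 library the values ranged from −0.18 to 0.19 for Nrp1, −0.23 to 0.021 for Sema6d, −0.42 to 0.078 for Sema3a, −0.19 to 0.022 for Plxna1, −0.057 to 0.051 for Sema4a, −0.25 to 0.075 for Sema4c and −0.12 to 0.31 for Plxnc1. Values also moved by over 1.5 times without changing sign, with ranges of −0.57 to −0.15 for Sema3e, −0.79 to −0.30 for Sema3g, −0.34 to −0.15 for Sema4b, 0.068 to 0.18 for Sema5a, 0.13 to 0.43 for Plxna3, 0.089 to 0.24 for Plxna4 and 0.098 to 0.33 for Plxnb1. In all, 23 of the 33 moved by over 1.5 times or changed sign in this way, 18 of them without WT replicate 1. The cause of these changes was not tested. Sema5b, at 18 counts in KO replicate 3, had the lowest count of any member, so counting error weighs most there. That library held 18883922 counts in all, against 18542720 in WT replicate 1, where Sema5b held 114.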

Other observations

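KO replicate 3 was the highest or lowest of the 6 libraries for 17 of the 33 members (51.5%), against 35.6% of all genes tested. It was the lowest for Plxdc1, Sema3e, Sema4f, Sema4g, Sema5b, Sema6a, Sema6b and Sema6c and the highest for Nrp2, Plxna2, Plxna3, Plxna4, Plxnb1, Plxnb2, Plxnd1, Sema3d and Sema4d. Without KO replicate 3 the log2 fold change was 0.53 for Nrp2, 0.35 for Plxnd1, −1.07 for Plxdc1 and −0.71 for Sema5b. Vegfd, a lymphatic growth factor with low counts, stood at 3.41, 0.678 and 1.42 CPM in WT against 0.174, 0.741 and 0.325 in KO.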
